A study of Mus musculus with 6 samples.

Results

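The 10 genes described here encode transcription factors that build or maintain the fat cell: Pparg, Rxra, Cebpa, Cebpb, Cebpd, Klf15, Ebf1, Ebf2, Zfp423 and Stat5a. Each was taken by its symbol, from array probe sets annotated with exactly 1 gene symbol, and all 10 were found among 30142 named genes, each with 1 probe set. Whole-transcript microarrays measured total RNA of inguinal subcutaneous white fat from male C57BL/6 mice aged 2 months. The 3 mice of the group labelled KO carried floxed TFG alleles (f/f) and Adipoq-ERT2Cre, and the 3 mice of the group labelled WT carried the floxed alleles without Cre. Both groups received tamoxifen intraperitoneally for 5 days, and the fat was analysed 2 weeks later. The adiponectin promoter that drives the Cre is active in adipocytes, while the RNA came from the whole depot, which also holds vessels, stroma and immune cells. A change in the number of adipocytes and a change in RNA per adipocyte therefore cannot be told apart. Values are log2 signals, n = 3 arrays per group, and each difference is KO-labelled minus WT-labelled on that scale.

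Tfg itself, whose protein works where cargo leaves the endoplasmic reticulum, read 7.99, 8.21 and 8.03 on the KO-labelled arrays, against 7.97, 7.94 and 7.91 on the WT-labelled arrays. On the deposited values it was thus not lower under the KO label (difference 0.14 ± 0.11 SE, limma's adjusted p = 0.345). Relative to the housekeeping median it stood at -1.09 (adjusted p = 0.0167). That scaling moved the median of all probe sets to -1.59 and called 58803 of them lower, so it does not set Tfg apart. Which exons its probe set reads is not given, so the check of the labels is partial, and each group is named by its label throughout. The KO-labelled arrays had medians of 6.47 to 6.76 over all probe sets, against 6.96 to 7.02 for the WT-labelled arrays, and the median difference of all 65956 probe sets was -0.37. Replicate 2 of the KO-labelled group correlated with its 2 partners at 0.960 and 0.965 across probe sets, against 0.986 between those partners. Skeletal muscle markers were high on KO-labelled replicates 1 and 2 and not on replicate 3, as given below.

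Fat cell formation runs through a cascade of these factors. In cultured mouse preadipocytes C/EBPβ and C/EBPδ appear early and switch on Pparg and Cebpa, which then keep each other active and drive the genes of the mature adipocyte. PPARγ binds DNA as a heterodimer with RXRα. EBF1, EBF2, ZFP423, STAT5A and KLF15 act around this core, in committing precursor cells, in raising Pparg or in maintaining the mature cell.

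The promoters of 3 of the 10 genes are shown because they set a gene with a large difference (Pparg), the gene with the next largest (Cebpa) and one with almost none (Zfp423) beside each other. The sequences are RefSeq's of GRCm38.p6 and give the 250 bases before the listed start of transcription, 5′ to 3′ on the gene's own strand. Pparg is taken at the most downstream of its 3 listed starts (chr6:115421816-115422065, plus strand), Cebpa at its only one (chr7:35119043-35119292, plus strand) and Zfp423 at the first listed of its 2 (chr8:87959596-87959845, minus strand). Capitals mark matches on either strand to TTGCNNAA, letters of the C/EBP half-site pair, or to CCACCC, letters that KLF factors bind.
Pparg: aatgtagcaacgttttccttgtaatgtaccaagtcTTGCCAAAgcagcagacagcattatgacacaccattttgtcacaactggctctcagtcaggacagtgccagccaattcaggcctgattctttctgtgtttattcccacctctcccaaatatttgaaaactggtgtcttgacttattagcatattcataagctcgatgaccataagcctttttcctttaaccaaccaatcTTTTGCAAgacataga
Cebpa: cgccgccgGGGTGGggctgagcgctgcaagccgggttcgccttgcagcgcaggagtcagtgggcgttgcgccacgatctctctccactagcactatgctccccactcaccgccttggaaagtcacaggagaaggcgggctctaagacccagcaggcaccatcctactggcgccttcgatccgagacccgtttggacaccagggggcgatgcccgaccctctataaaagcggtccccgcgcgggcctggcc
Zfp423: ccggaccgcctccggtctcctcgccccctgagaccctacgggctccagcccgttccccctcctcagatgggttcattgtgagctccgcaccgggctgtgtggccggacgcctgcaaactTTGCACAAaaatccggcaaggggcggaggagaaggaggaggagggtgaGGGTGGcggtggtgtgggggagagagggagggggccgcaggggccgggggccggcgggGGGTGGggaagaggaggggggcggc
The Pparg sequence holds 2 matches to TTGCNNAA, beginning 215 and 16 bases before the start. Zfp423 holds 1 such match, 131 bases before its start, and 2 matches to CCACCC, and Cebpa holds 1 match to CCACCC. Over all 32851 listed promoters of this length, 9.56% held TTGCNNAA and 28.1% held CCACCC. RefSeq's table had 14 starts for 8 of the 10 genes, with no entry for Cebpd and Ebf2, and 2 of the 14 held TTGCNNAA and 7 held CCACCC. The EBF letters CCCNNGGG stood in 3 of the 14 and in 11.8% of all promoters, for Cebpb, Zfp423 and Stat5a. The STAT letters TTCNNNGAA stood in 0 of the 14 and in 7.02% of all, and a perfect DR1 repeat, the PPARγ-RXR element, in 0 of the 14 and in 0.0335% of all. All motifs were searched on both strands, no match overlapped that of another motif, and a match is a description of the letters and not a binding site. The motifs and the sequences shown were chosen after the values were seen. Pparg and Zfp423, which both hold TTGCNNAA at the start shown and not at their other listed starts, had the largest and the smallest difference of the 10.

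All 10 factors had a higher mean on the KO-labelled arrays, and 2 of them, Pparg and Ebf1, rose past the test. The size of the difference ranged widely, between 0.05 for Zfp423 and 3.66 for Pparg, with a median of 0.42. After adjustment over all probe sets, limma called 2 of the 10 higher and 0 lower. The same calls covered 5.32% (higher) and 15.6% (lower) of all probe sets, and 10.7% (higher) and 10.1% (lower) of 19046 protein-coding genes. For 7 of the 10 factors every KO-labelled array exceeded every WT-labelled array, against 11.1% of all probe sets and 23.4% of protein-coding genes. The opposite order held for 0 of the 10, against 44.9% and 40.9%. Protein-coding genes had a median difference of -0.18. Higher calls made up 25.4% of all calls as deposited, 64.6% with quantile normalization and 61.2% with centring. These factors were chosen with earlier results known, so the counts describe them and test nothing. How firm a direction is depends on scaling. The 10 stayed higher after quantile normalization or centring each array on its median. After subtracting each array's median over 14 housekeeping genes 7 of the 10 turned negative, and Pparg, Cebpa and Ebf1 did not. That scaling moved the median of all probe sets to -1.59 and called 588 higher and 58803 lower. The lowest of the 10 under it, Zfp423, stood at -1.17.

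**Figure D1:**
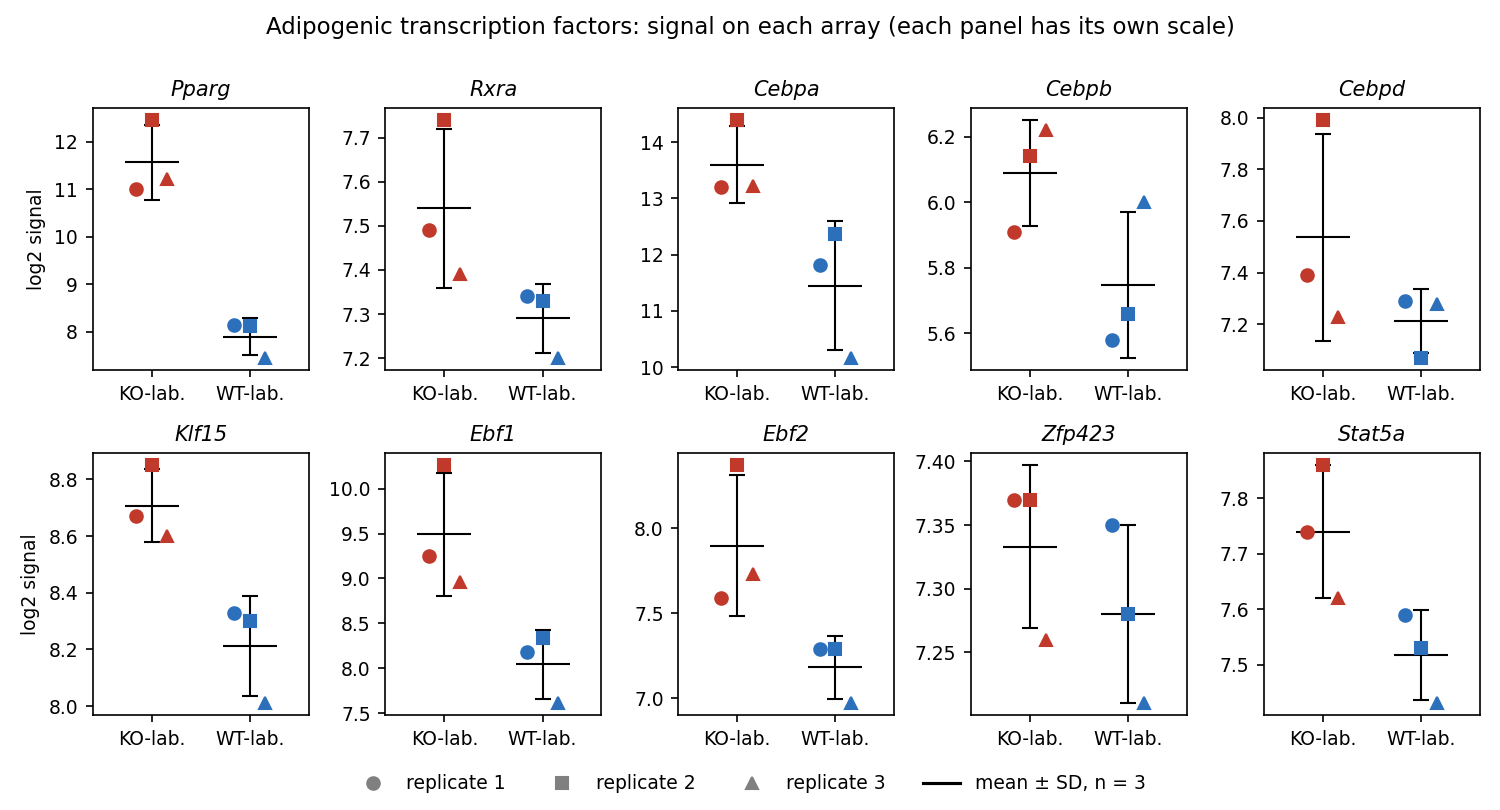
Log2 signal of each of the 10 factors on every array, KO-labelled at left and WT-labelled at right in each panel, with the mean and SD of 3 arrays; each panel has its own scale. The groups are separate for 7 factors and overlap for Cebpb, Cebpd and Zfp423.

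Pparg, the nuclear receptor without which fat cells do not form, had the largest difference. Its signal was 11.01, 12.45 and 11.22 on the KO-labelled arrays, against 8.14, 8.12 and 7.45 on the WT-labelled arrays. The groups were far apart, the lowest KO-labelled value lying well above every WT-labelled one. The mean was 11.56 ± 0.78 on KO-labelled and 7.90 ± 0.39 on WT-labelled arrays (SD, n = 3 each), a rise of 3.66 ± 0.42 (SE), or 12.6-fold, with an interval from 2.63 to 4.68 (95%) and limma's adjusted p = 0.0354. By exact permutation (2-sided), p = 0.1, which no comparison of 3 arrays with 3 can go below. Of all protein-coding genes 99.8% had a smaller difference. The rise was 2.43 relative to the housekeeping median and 3.32 on KO-labelled replicate 3 alone, the array without muscle signal. Its call was lost without KO-labelled replicate 3 (adjusted p = 0.0624) or without any single WT-labelled array (adjusted p between 0.0824 and 0.114), settings in which limma called 0 of all probe sets, with 21579 to 28697 at an unadjusted p under 0.05. The probe set stands for the whole gene, so the isoform made from the downstream start cannot be separated from the others.

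Rxra, which encodes the partner through which PPARγ binds DNA, differed little. It read 7.49, 7.74 and 7.39 on the KO-labelled arrays, against 7.34, 7.33 and 7.20 on the WT-labelled arrays. The groups did not overlap, but the gap between them was only that between 7.39 and 7.34. The difference of 0.25 ± 0.13 (SE) did not pass (adjusted p = 0.175), with an interval from -0.08 to 0.58. The other RXR genes overlapped between the groups, Rxrb at -0.11 and Rxrg at -0.04 (adjusted p = 0.468 and 0.799). All negative differences given here for relatives of the 10 factors turned positive after quantile normalization and after centring, in which all 19 measured relatives were positive. The partners in the heterodimer thus had intervals that do not meet, 2.63 to 4.68 for Pparg and -0.08 to 0.58 for Rxra.

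The 3 C/EBP genes differed from each other in size. Cebpa, the late factor that sustains Pparg in mature adipocytes, read 13.20, 14.39 and 13.21 on the KO-labelled arrays, against 11.82, 12.37 and 10.16 on the WT-labelled arrays. Every KO-labelled value was above every WT-labelled value, and WT-labelled replicate 3 stood apart at the low end. The difference was 2.15 ± 0.63 (SE), 4.44-fold, and missed the threshold on the deposited values (adjusted p = 0.055, interval 0.60 to 3.69). It passed under 5 of 17 other settings, with limma's adjusted p between 0.0423 and 0.129 where each group kept at least 2 arrays. The lowest came from the housekeeping scaling, whose p values say little about single genes. Without KO-labelled replicate 3 or any WT-labelled array, limma called 0 of all probe sets, so no gene could pass there. The difference of Cebpa was 1.51 without WT-labelled replicate 3.

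Cebpb and Cebpd, the early factors of the cascade, overlapped between the groups. Cebpb read 5.91, 6.14 and 6.22 on the KO-labelled arrays, against 5.58, 5.66 and 6.00 on the WT-labelled arrays. Its signal lay under the array's own median on all 6 arrays, and without detection calls it is not known whether it stood above background. The difference was 0.34 ± 0.16 (SE, adjusted p = 0.137). Cebpd read 7.39, 7.99 and 7.23 on the KO-labelled arrays, against 7.29, 7.07 and 7.28 on the WT-labelled arrays. Its difference of 0.32 ± 0.22 (SE, adjusted p = 0.263) rested on KO-labelled replicate 2, without which it was 0.10. Of their relatives, Cebpg, whose product pairs with the other C/EBP proteins, rose by 0.87 ± 0.16 (SE, adjusted p = 0.0357) with 8.12, 8.31 and 8.51 on KO-labelled and 7.56, 7.55 and 7.21 on WT-labelled arrays. Ddit3, which encodes the C/EBP inhibitor CHOP, was 0.41 higher (adjusted p = 0.111) and Cebpe, a granulocyte factor, stood at -0.24 (adjusted p = 0.434).

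Ebf1, an early B cell factor that also acts in fat cell precursors and adipocytes, was the other factor that rose. It read 9.25, 10.26 and 8.96 on the KO-labelled arrays, against 8.18, 8.34 and 7.61 on the WT-labelled arrays. The groups were separate, again with KO-labelled replicate 2 highest and WT-labelled replicate 3 lowest. The rise was 1.45 ± 0.38 (SE), 2.73-fold (adjusted p = 0.0467, interval 0.52 to 2.37), and it did not pass after quantile normalization (1.70, adjusted p = 0.0596) or relative to the housekeeping median (0.22, adjusted p = 0.633). Its call was also lost when any single array was left out, with adjusted p between 0.0548 and 0.133. Without KO-labelled replicate 3 or any WT-labelled array, limma called 0 of all probe sets, so no gene could pass there. Only the fits without KO-labelled replicate 1 or 2 (limma's adjusted p = 0.059 and 0.0548) bear on Ebf1 itself. The difference of Ebf1 without KO-labelled replicates 1 and 2 was 0.92. Ebf2, known for marking brown and beige precursors, read 7.59, 8.37 and 7.73 on the KO-labelled arrays, against 7.29, 7.29 and 6.97 on the WT-labelled arrays. These groups were separate too, at a difference of 0.71 ± 0.23 (SE, adjusted p = 0.0667). The paralogue Ebf3 was close to Ebf2, at 0.82 ± 0.24 (SE, adjusted p = 0.0553), while Ebf4 stood at -0.31 ± 0.12 (SE, adjusted p = 0.0936). The 3 EBF genes higher under the KO label and Ebf4 all had groups that did not overlap. Of protein-coding genes 23.4% had every KO-labelled value above every WT-labelled one and 40.9% the opposite, so such separation is common.

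Klf15, a zinc finger factor that rises late in adipogenesis and promotes the glucose transporter gene of fat, had small spreads. It read 8.67, 8.85 and 8.60 on the KO-labelled arrays, against 8.33, 8.30 and 8.01 on the WT-labelled arrays. Every KO-labelled value was above the highest WT-labelled one, and the difference of 0.49 ± 0.14 (SE, adjusted p = 0.0527) lay just outside the threshold. It passed under 4 of 17 other settings, and in several of the 17 limma called 0 of all probe sets, so no gene could pass. Of the other Krüppel-like factor genes, Klf6, whose product represses the preadipocyte gene Dlk1, rose by 2.02 ± 0.19 (SE, adjusted p = 0.0354), with 9.24, 9.65 and 9.39 on KO-labelled and 7.47, 7.67 and 7.09 on WT-labelled arrays. Klf4, an early inducer of Cebpb, and Klf3, a repressor of adipogenesis, rose by 0.57 and 0.52 (adjusted p = 0.0457 and 0.0479). Klf5, which drives Pparg early in differentiation, stood at -0.08 (adjusted p = 0.581).

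Stat5a, a factor downstream of growth hormone and prolactin, read 7.74, 7.86 and 7.62 on the KO-labelled arrays, against 7.59, 7.53 and 7.43 on the WT-labelled arrays. The groups came close to each other without overlapping, and the difference of 0.22 ± 0.12 (SE) did not pass (adjusted p = 0.172). Its close relative Stat5b was 0.38 ± 0.14 higher (SE, adjusted p = 0.0784). Zfp423, a zinc finger factor that commits precursors to the fat lineage and restrains the thermogenic program in white adipocytes, differed least of the 10. It read 7.37, 7.37 and 7.26 on the KO-labelled arrays, against 7.35, 7.28 and 7.21 on the WT-labelled arrays, and these values interleave. The difference was 0.05 ± 0.11 (SE, adjusted p = 0.694), with an interval from -0.21 to 0.31. Its paralogue Zfp521, which opposes it, read 0.01 higher (adjusted p = 0.929).

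**Figure D2:**
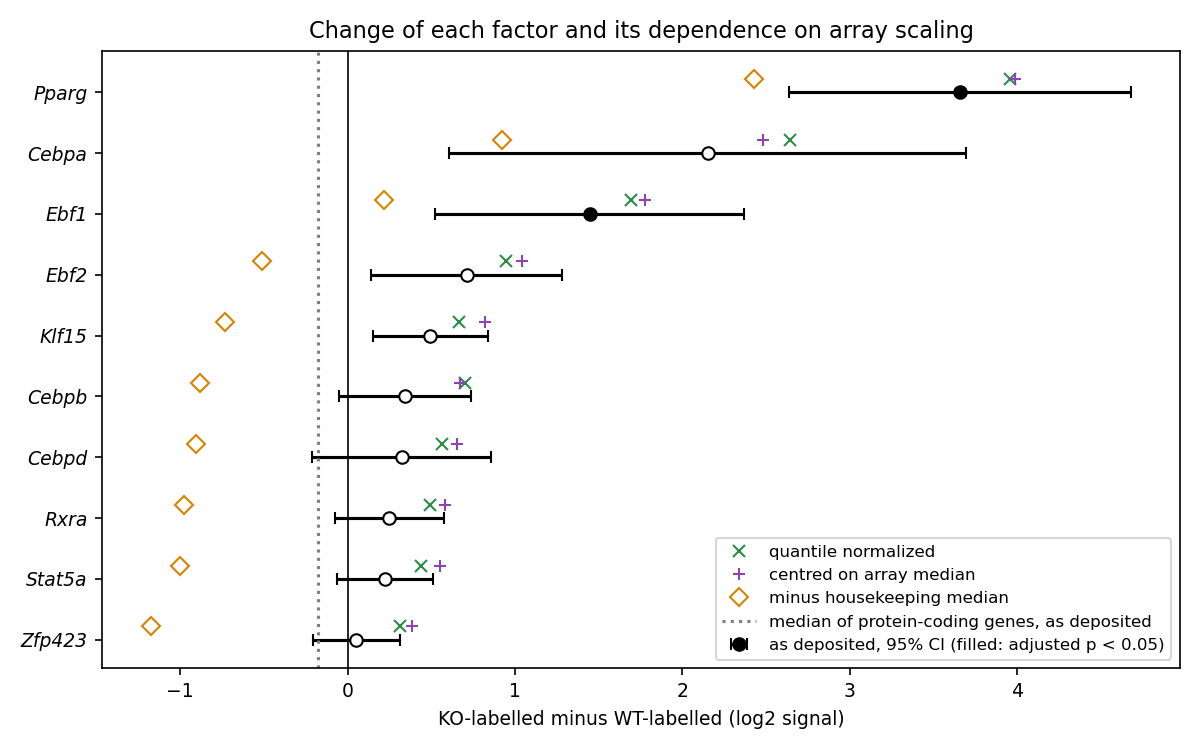
Difference of each factor, KO-labelled minus WT-labelled, in log2 signal (circles with 95% intervals, filled where limma's adjusted p was under 0.05), with the same difference after 3 other array scalings; the dotted line marks the median of protein-coding genes, -0.18. Pparg lies at 3.66 and Zfp423 at 0.05. The housekeeping scaling moves 7 factors below 0 and the median of all probe sets to -1.59.

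Among themselves the 10 factors shared an order of arrays. KO-labelled replicate 2 was the highest of its group for 8 of the 10, against 33.3% of protein-coding genes, and WT-labelled replicate 3 was the lowest of its group for 8 of the 10, against 29.0%. Cebpb was an exception on both counts, with replicate 3 the highest in each group. Likeness was measured as the mean absolute difference over the 6 arrays between log2 signals after each gene's WT-labelled mean was subtracted. By it Rxra and Stat5a were closest of the 10, at 0.03, and Zfp423 lay 0.09 from Stat5a, while Pparg lay 1.03 from its nearest, Cebpa. For the search beyond the 10, predicted Gm and Rik genes and symbols made from database identifiers were left out. Among the other named genes, the pattern of Pparg was closest to Cst3, Sparcl1 and Acadl (0.17, 0.18 and 0.19). Those genes encode a secreted protease inhibitor, a matrix protein and an enzyme of mitochondrial fatty acid oxidation. The pattern of Cebpa was closest to Mgst1, Ap3s1 and Etfa (0.28 to 0.30), and that of Ebf1 to Ube2h, Micos13 and Mgst3 (0.07 to 0.10).

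The same arrays stood out in cell type markers, whose counts are to be read against the 10.7% of protein-coding genes called higher. Over 13 measured adipocyte markers, of which 9 rose and 0 fell, the mean signal was 12.29, 13.40 and 11.99 on the KO-labelled arrays, against 10.02, 10.52 and 8.77 on the WT-labelled arrays. As for Pparg, Cebpa and Ebf1, the highest array was KO-labelled replicate 2 and the lowest WT-labelled replicate 3. Plin1, which encodes a lipid droplet coat protein, rose by 2.29. Adipoq, the defining marker, read 12.73, 13.01 and 12.57 on KO-labelled and 9.80, 10.97 and 8.76 on WT-labelled arrays. Endothelial markers, of which 8 of 9 rose and 0 fell, had a mean of 8.54 to 9.18 on KO-labelled and 7.09 to 7.30 on WT-labelled arrays. Cdh5, the cadherin of endothelial junctions, rose by 4.06, the VEGF receptor gene Kdr by 2.48 and Pecam1 by 2.38. Ebf1 is also expressed outside adipocytes, and the part of these markers in its difference was not tested.

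Skeletal muscle markers averaged 8.76, 10.38 and 6.79 on the KO-labelled arrays, against 6.92, 6.92 and 6.87 on the WT-labelled arrays, with 0 of 10 called. Atp2a1, the calcium pump of fast muscle, read 11.20, 13.39 and 7.12 on KO-labelled and 7.19, 7.08 and 7.36 on WT-labelled arrays, and the muscle actin gene Acta1 read 9.59, 11.79 and 7.80 on KO-labelled and 7.88, 7.58 and 7.46 on WT-labelled arrays. Mylpf, a myosin light chain gene, was 0.75 higher without passing (adjusted p = 0.128). On the array without this signal, KO-labelled replicate 3, Pparg, Cebpa and Ebf1 were higher than on every WT-labelled array, by 3.32, 1.76 and 0.92 against the WT-labelled mean. The difference of Zfp423 was -0.02 there. These values rest on a single KO-labelled array, and the part of the muscle signal in the factors' differences was not tested.

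Markers of precursors and immune cells are to be read against the 10.7% of protein-coding genes called higher and the 10.1% called lower. Of 10 measured markers of precursors and fibroblasts 1 rose and 0 fell, with a median of 0.25, and 3 rose after centring. The one that rose as deposited was Dcn, a matrix proteoglycan gene, at 2.32, while the collagen gene Col3a1 stood at 0.32 without passing (adjusted p = 0.0612). Dpp4, Thy1 and Pi16 stood at -0.41, -0.40 and -0.32 without passing, with every KO-labelled value below every WT-labelled one. That order held for 40.9% of protein-coding genes, and the median of all probe sets was -0.37. As deposited 7 of the 10 were positive and 3 negative, and after centring 8 and 2. Of 10 macrophage markers 2 rose and 1 fell, with 5 positive, 5 negative and a median of 0.06, and 4 rose after centring. The lysozyme gene Lyz2 rose by 1.61 and the complement gene C1qb by 0.80 (adjusted p = 0.0354 and 0.0399), while Itgam fell, at -0.44 (adjusted p = 0.049). Adgre1, which encodes the macrophage surface protein F4/80, stood at -0.03 (adjusted p = 0.885). Of 8 lymphocyte markers 0 rose and 3 fell on the deposited values, with a median of -0.52. The B cell genes Cd22 and Cd79a were among the 3, at -0.61 and -0.52 (adjusted p = 0.0404 for each). After quantile normalization or centring 0 macrophage, 0 lymphocyte and 0 epithelial markers fell. The leucocyte marker Ptprc stood at -0.12 (adjusted p = 0.425). In 8 smooth muscle and pericyte markers 2 rose and 0 fell, Rgs5 by 1.93 and Acta2 by 1.34. In 6 epithelial markers 0 rose and 1 fell, the keratin gene Krt14 at -0.69, with Epcam at -0.38 (adjusted p = 0.0676). In 10 brown and beige markers 2 rose and 0 fell, the cytochrome oxidase subunit genes Cox8b by 3.53 and Cox7a1 by 1.22. Of these 10 markers 5 were positive and 5 negative, with a median of 0.10, and after centring 7 were positive and 3 negative. All KO-labelled values lay above the WT-labelled ones for 4 of them and below for 4, against 23.4% and 40.9% of protein-coding genes.

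**Figure D3:**
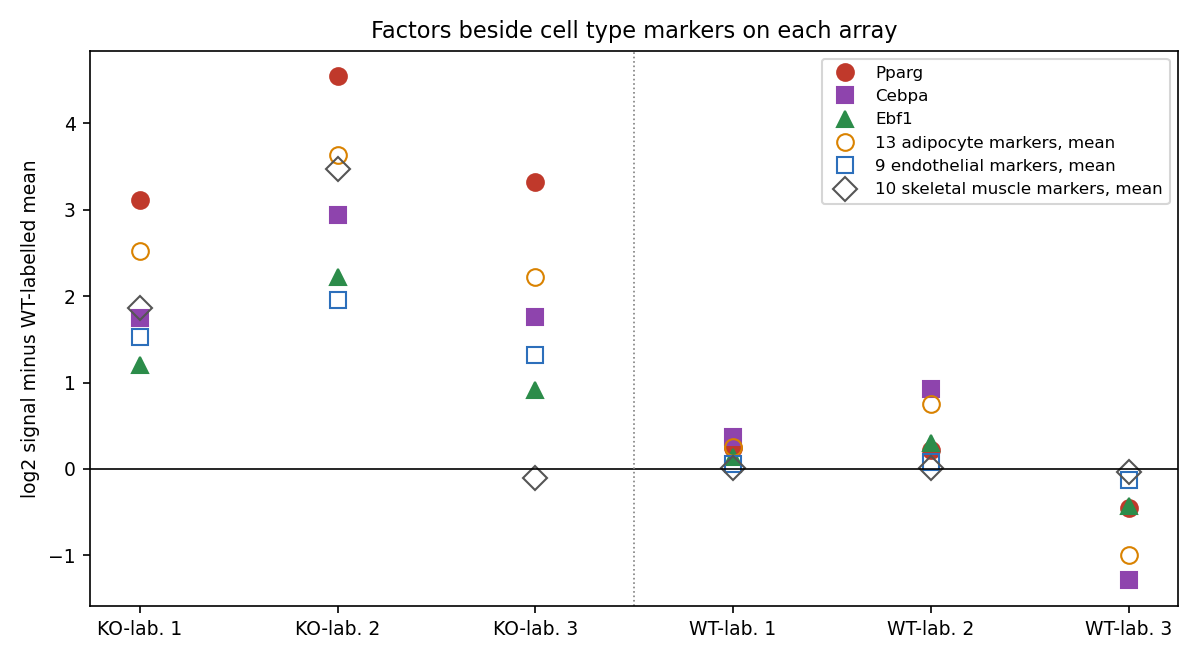
Log2 signal minus the WT-labelled mean on each array, KO-labelled at left, for Pparg, Cebpa and Ebf1 (filled) and for the mean of 13 adipocyte, 9 endothelial and 10 skeletal muscle markers (open). Muscle markers are high on KO-labelled replicates 1 and 2 only, while the 3 factors are above the WT-labelled arrays on all 3 KO-labelled arrays.

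Genes that PPARγ is known to activate were mostly called higher. Of 22 measured targets 17 rose and 0 fell, against 10.7% of protein-coding genes called higher and 10.1% called lower. For all 22 the KO-labelled values lay above the WT-labelled ones, against 23.4% of protein-coding genes. The median difference was 2.57. Fabp5, a fatty acid binding protein gene, rose by 1.98, Plin2, a lipid droplet coat gene, by 3.02, adipogenin (Adig) by 2.31 and the glycerol channel gene Aqp7 by 3.31 (adjusted p = 0.0354 for each). Fabp4, at 2.53, did not pass (adjusted p = 0.0769). Relative to the housekeeping median the list's median was 1.34, with 19 genes positive, 3 negative and 1 called lower. The list shares genes with the adipocyte markers and was chosen with earlier results known, so it is no separate support.

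Coregulators that these factors recruit were called higher in part, and the share over protein-coding genes was 10.7%. Of 18 measured genes 8 rose and 0 fell, with a median of 0.57. The acetyltransferase genes Crebbp and Ep300, whose products open chromatin at PPARγ and C/EBP sites, rose by 1.90 ± 0.36 and 0.997 ± 0.235 (SE). Nrip1, which encodes the corepressor RIP140 of white adipocytes, rose by 2.02 ± 0.40 (SE), with 8.61, 10.17 and 8.92 on KO-labelled and 7.31, 7.19 and 7.15 on WT-labelled arrays. Rb1, the retinoblastoma gene, rose by 1.18. The brown fat coregulator genes Prdm16 and Ppargc1a did not pass, at -0.18 and 0.37 (adjusted p = 0.204 and 0.201). Of 16 other pro-adipogenic genes 4 rose and 0 fell, with a median of 0.62: Atf4 by 1.27, Nfib by 1.31, the glucocorticoid receptor gene Nr3c1 by 0.69 and Stat3 by 0.58. Relative to the housekeeping median both lists turned negative, at -0.65 and -0.61, where the median of all probe sets was -1.59.

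Of 15 measured genes that restrain adipogenesis 3 rose and 0 fell, against 10.7% of protein-coding genes called higher, with a median of 0.09. The median became -1.14 relative to the housekeeping median, where that of all probe sets was -1.59. It became 0.65 over the 8 genes left without dim probe sets (mean signal under 6.83). The 3 were Foxo1, a transcription factor that insulin shuts out of the nucleus, at 1.68, Nr2f2 (COUP-TFII) at 0.91 and Zfp36, which encodes an RNA-destabilising protein, at 1.14. Irf4, which opposes adipogenesis in cultured cells and promotes lipolysis in adipocytes, read 9.12, 12.51 and 9.26 on the KO-labelled arrays, against 7.42, 7.35 and 6.82 on the WT-labelled arrays. Its difference of 3.10 ± 0.92 (SE) missed the threshold (adjusted p = 0.0552), with KO-labelled replicate 2 far above its partners. Dlk1, the preadipocyte marker, and the Wnt ligand genes Wnt10b and Wnt5a stood at -0.21, -0.31 and -0.27 without passing (adjusted p = 0.155, 0.0756 and 0.0984). All 3 values lie between the median of protein-coding genes, -0.18, and that of all probe sets, -0.37. All 15 genes of the list were positive after quantile normalization or centring.

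Lists close to Stat5a and to Klf15 were described in the same way. Their counts are to be read against the 10.7% of protein-coding genes called higher. Of 11 measured genes of the growth hormone and STAT5 pathway 1 rose and 0 fell, which is near that share. The median of -0.05 became 0.24 after quantile normalization, 0.28 after centring and 0.38 over the 5 genes left without dim probe sets. Igf1 rose by 0.75 ± 0.19 (SE, adjusted p = 0.0441), while the receptor gene Ghr, at 1.84 ± 0.53 (SE, adjusted p = 0.0533), did not pass. Cish, a feedback inhibitor that STAT5 induces, stood at -0.21 (adjusted p = 0.177) and Jak2 at 0.38 (adjusted p = 0.0997). Of 12 glucocorticoid-responsive genes, a class to which Klf15 and Cebpd also belong, 7 rose and 0 fell, with a median of 1.17, and 4 rose after quantile normalization. The kinase gene Sgk1 rose by 1.21, Errfi1 by 1.30, Angptl4, a lipase inhibitor gene that is also a PPARγ target, by 2.39 and the clock gene Per1 by 0.65. Relative to the housekeeping median these lists stood at -1.28 and -0.06, where the median of all probe sets was -1.59. Of 19 relatives of the 10 factors 4 rose and 0 fell, with a median of 0.40, and Ppara, the liver-type relative of Pparg, was 0.78 ± 0.24 higher without passing (SE, adjusted p = 0.0582).

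**Figure D4:**
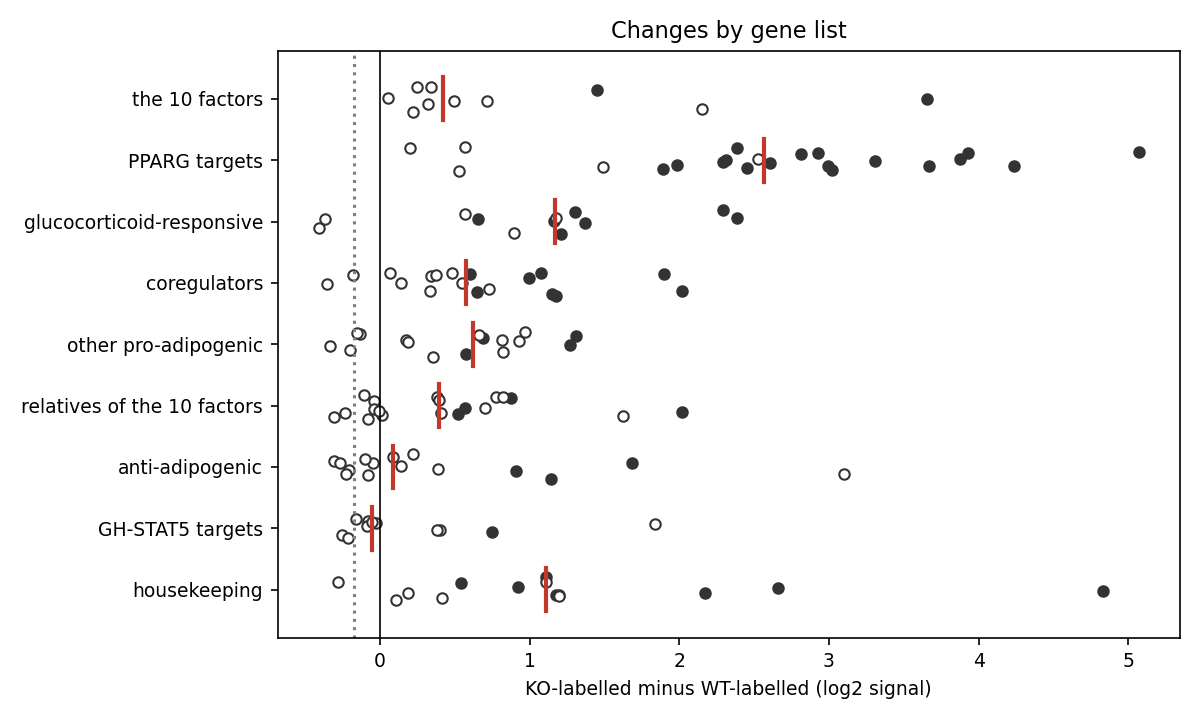
Difference of each gene by list, KO-labelled minus WT-labelled in log2 signal; filled circles passed limma's test at an adjusted p under 0.05, red bars are list medians and the dotted line marks the median of protein-coding genes, -0.18. The 10 factors have a median of 0.42, PPARG targets of 2.57 and housekeeping genes of 1.11.

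Housekeeping genes were higher beside all of these lists. Of 14 measured genes 8 rose and 0 fell, against 10.7% of protein-coding genes called higher. The median was 1.11, but the single differences ran from -0.28 to 4.83. The genes' median signal per array was 8.61, 9.48 and 8.96 on KO-labelled and 7.63, 8.05 and 7.69 on WT-labelled arrays. Of the 10 factors, Pparg, Cebpa and Ebf1 exceeded 1.11 and the other 7 lay below it. The part of this shift in the factors' differences was not tested.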

How the data were processed

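For each of 6 arrays the authors deposited log2 signals by probe set, made with Transcriptome Analysis Console, per the submitters' processing notes. Per the labels' protocols, total RNA was biotinylated with a WT pico kit. The sources used here state no background correction, normalization or genome build. Array medians differ, and values run from 2.81 to 19.93. GEO's platform annotation gave 1 gene symbol to 30604 probe sets, several to 2146 and none to 33206. Symbols were updated through RefSeq's gene table, and genes with several probe sets are represented by the brightest.

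Groups were compared with limma 3.58.1 in R 4.3.3 (lmFit, eBayes without trend, genotype as the only term) on all 65956 probe sets with Benjamini-Hochberg adjustment, with calls at an adjusted p under 0.05. The script was tested on simulated data. Exact permutation tests of single values (2-sided) used scipy 1.17.1. The 10 members, the 17 lists and the tests were chosen with earlier results of these data known. Of 231 genes in all lists, 208 were measured. The rest, Pdgfra among them, were not analysed here. Within a list, the genes named had the smallest p (4 for pathway lists, 2 for marker lists), with added defining markers. Further relatives of each factor, Fabp4, Prdm16, Ppargc1a, Dlk1, Wnt10b, Wnt5a, Dpp4, Thy1, Pi16 and Itgam were named after their values were seen. The labels call the arrays biological replicates. Without detection calls or scan dates, neither background nor batch could be examined, and the number of arrays limits precision.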

Additional observations from a re-analysis of the deposited data

How the results depend on the processing

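Of 169 values of the 10 factors under other settings, 137 kept their direction and their side of the threshold, 14 were no longer past it, 10 newly passed and 8 changed sign. Pparg stayed positive in all 17 settings (2.43 to 3.99) and passed in 12. Subtracting each array's housekeeping median turned Rxra to -0.98, Cebpb to -0.88, Cebpd to -0.90, Klf15 to -0.73, Ebf2 to -0.51, Zfp423 to -1.17, Stat5a to -1.003 and Tfg to -1.09, left Cebpa at 0.92 (adjusted p = 0.0423) and Ebf1 at 0.22 (not passing), and called 2 of the 10 higher and 4 lower. That scaling moved the median of all probe sets to -1.59 and called 588 higher and 58803 lower, and its subtracted medians add the same spread to every probe set, so its p values say little about single genes. Quantile normalization and centring moved the median of all probe sets to -0.04. Quantile normalization left Ebf1 at 1.70 without passing, called 1 of the 10 factors, and 4032 probe sets higher and 2212 lower. The higher calls were then 64.6% of all calls, against 25.4% as deposited. Centring called 4 of the 10 (Cebpa at 2.48 and Klf15 at 0.82 joined) and 5146 probe sets higher and 3259 lower (61.2% higher). With 1-symbol probe sets only, where fewer are tested, 4 of the 10 passed, Cebpa (2.15) and Klf15 (0.49) among them, and 6642 probe sets were lower. Klf15 passed without dim probe sets (mean under 6.83) at 0.49, and Cebpa with trend and robust eBayes at 2.15. Array weights called 4 of the 10, with Klf15 at 0.40 and Ebf2 at 0.53, and 17432 probe sets lower. With the replicate number as a block Cebpa passed (2.15, adjusted p = 0.0429), Pparg and Ebf1 kept their calls, and 2960 probe sets were higher and 8267 lower. The labels do not say what a number shares, and same-numbered arrays correlated in their deviations at 0.00, 0.20 and 0.14, so the block was not used. Leaving out each array in turn gave 3.21 to 3.93 for Pparg and 1.06 to 1.71 for Ebf1, with 0 to 1 of the 10 called higher, 0 to 3469 probe sets higher and 0 to 10697 lower. Without KO-labelled replicate 3 or any WT-labelled replicate, limma called 0 probe sets (21579 to 28697 at an unadjusted p under 0.05). An alternative chosen after seeing the data left out KO-labelled replicates 1 and 2, which carry muscle signal, and assumed that the lone array varies like the others. It gave 3.32 for Pparg, 0.92 for Ebf1 and -0.02 for Zfp423, and called 0 of the 10 and 0 probe sets (19275 at an unadjusted p under 0.05). The cause of these changes was not tested beyond what is said here. Signal over background is unknown, which limits dim genes such as Cebpb most.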
